A study of Mus musculus with 8 samples.

Results

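The Notch pathway was followed through 10 of its genes in RNA libraries labelled SVZ-NSCs, which are mouse neural stem cells of the subventricular zone (SVZ) lining the lateral ventricle. The 10 genes are the receptors Notch1, Notch2 and Notch3, the ligands Dll1, Dll3 and Jag1, the DNA-binding factor Rbpj, and the targets Hes1, Hes5 and Hey1. They were taken by symbol from a table of 45777 genes. All 10 were in the table, and all 10 were among the 17644 genes that passed the filter on low counts.

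The design crosses genotype with lipoprotein treatment. Per the labels, 4 samples come from cells with an S1pr1 deletion, the gene of S1PR1, a receptor for the lipid sphingosine-1-phosphate, and 4 from WT control cells. Cells of each genotype received high-density lipoprotein, labelled ApoM+HDL or ApoM-HDL by the presence of apolipoprotein M, the carrier of sphingosine-1-phosphate on these particles. Each of the 4 combinations has 2 samples. The table heads its libraries GH1, GH2, GV1, GV2, CH1, CH2, CV1 and CV2. The letter C was read as control, and G as S1PR1-deficient by elimination. Which lipoprotein H or V stands for is not given in the sources used here, so H against V is a difference between codes with no treatment named. The strain, age and sex of the mice, the means of deleting S1pr1, and whether replicates came from separate cultures or animals are not given either. The p-values therefore measure only the spread between these samples, which may be technical.

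Notch receptors sit on the cell surface and are activated by ligands on neighbouring cells. Binding exposes the receptor to cleavage by an ADAM protease and then by gamma-secretase, which frees an intracellular domain that joins RBPJ in the nucleus. The complex switches on Hes and Hey genes, whose products repress proneural factors and so hold neural stem cells in an undifferentiated state. In the adult subventricular zone, Notch2 and Notch3 are known for their part in stem cell quiescence.

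The regions just upstream of the genes show which letters known for RBPJ and HES-type factors lie there. RefSeq promoter entries on the GRCm38.p6 build were matched by symbol for 8 of the 10 genes, and Hes1 and Hey1 had no entry. The 250 bases upstream of each listed start site were searched on both strands. Hes5 is shown because it is the classical RBPJ target among the genes with an entry. Its 2 windows of 30 bases are chr4:154960685-154960714 and chr4:154960829-154960858 on the plus strand, and capitals mark the RBPJ letters TGGGAA or their reverse complement. The listed start site lies inside the RefSeq span of the gene, and the matches begin 226 and 82 bases upstream of it.
Hes5 window 1: agggcgagcgcgTTCCCAcagcccggacat
Hes5 window 2: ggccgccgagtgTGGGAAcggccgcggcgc
The letters TGGGAA were also found in both Rbpj entries. These entries overlap, share a match and lie inside the RefSeq span of the gene. TGGGAA occurs in 21.6% of all 32851 promoters of the table. The longer form CGTGGGAA, which contains TGGGAA, was found in none of the members' entries and in 0.636% of all promoters.

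The upstream regions of Notch1, Notch2, Dll1 and Jag1 are shown because these genes carry the differences in level described further on. They lie at chr2:26503823-26504072 on the minus strand for Notch1, chr3:98013288-98013537 on the plus strand for Notch2, chr17:15376933-15377182 on the minus strand for Dll1 and chr2:137116521-137116770 on the minus strand for Jag1. Capitals mark the HES-type letters CACGCG or CACNAG on either strand.
Notch1: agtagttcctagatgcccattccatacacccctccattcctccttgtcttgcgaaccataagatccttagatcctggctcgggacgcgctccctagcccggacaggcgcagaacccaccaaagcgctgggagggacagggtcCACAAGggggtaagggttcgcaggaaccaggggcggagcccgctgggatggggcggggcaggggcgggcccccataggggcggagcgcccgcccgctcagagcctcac
Notch2: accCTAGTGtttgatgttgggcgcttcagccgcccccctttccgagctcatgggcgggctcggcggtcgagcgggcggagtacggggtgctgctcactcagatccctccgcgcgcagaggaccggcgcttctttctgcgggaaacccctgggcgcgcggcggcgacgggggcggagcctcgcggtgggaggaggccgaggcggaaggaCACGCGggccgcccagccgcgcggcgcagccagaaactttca
Dll1: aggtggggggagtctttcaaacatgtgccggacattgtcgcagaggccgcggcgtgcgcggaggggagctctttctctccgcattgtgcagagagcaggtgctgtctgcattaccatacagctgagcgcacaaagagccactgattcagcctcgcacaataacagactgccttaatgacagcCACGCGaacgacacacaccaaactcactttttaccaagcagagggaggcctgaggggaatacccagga
Jag1: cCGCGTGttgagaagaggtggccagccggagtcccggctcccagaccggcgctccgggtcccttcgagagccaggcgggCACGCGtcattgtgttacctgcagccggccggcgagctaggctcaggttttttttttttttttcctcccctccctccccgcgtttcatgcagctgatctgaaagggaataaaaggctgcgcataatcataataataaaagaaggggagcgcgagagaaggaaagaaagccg
Notch2, Dll1 and Jag1 held CACGCG, which is in 7.62% of all promoters, and Jag1 held it at 2 places. Dll1 has a further entry, chr17:15375824-15376073 on the minus strand, in which none of the searched letters were found. Notch1, Notch2 and Notch3 held CACNAG, which is in 36.7% of all promoters. The letters CACGTG, found in 6.02% of all promoters, were in none of the members' entries. Such matches describe letters and do not show a bound site.

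Depth was even, with 39619305 to 45698186 counts per library. S1pr1, the gene named by the genotype, was not lower in the libraries headed G. It had 23.2 and 21.2 CPM (read counts scaled by library size) in GH, 22.2 and 22.4 in GV, 25.4 and 23.2 in CH, and 20.7 and 16.0 in CV. Its G mean was 22.3 ± 0.82 CPM and its C mean 21.3 ± 4.03 CPM (SD, n = 4 each), a log2 difference of 0.08 with a standard error (SE) of 0.08 (edgeR adjusted p = 0.568). That value averages -0.13 among H libraries (edgeR adjusted p = 0.711) and 0.28 among V libraries (adjusted p = 0.0890). Among C libraries S1pr1 was higher in H than in V by 0.40 (edgeR adjusted p = 0.0360). This adjusted p was above 0.05 without CH1, CH2, CV2, GH1 or GH2. The deleted stretch of the gene is not given, so reads from outside it may be counted. Because the level of S1pr1 does not bear out the letters, each group is called by its header below, and every direction between G and C rests on a genotype that this gene does not show. CV1 and CV2 stood apart from the other 6 libraries along the first principal component, at -38.0 and -41.1 against -6.31 to 27.0, and it held 22.4% of the variance. CH1 and CH2 stood apart along the second, at 43.6 and 30.4 against -17.2 to -4.51 (17.3% of the variance), and CV1 and CV2 lay at opposite ends of the third, at 41.5 and -39.8 (15.4%).

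Stem cell and radial glia markers, all 10 of which passed the filter, summed to 5481 to 5888 CPM in the G libraries and 6234 to 6312 CPM in the C libraries. Over both codes, 2 of the 10 were lower in G and 0 higher at an edgeR adjusted p under 0.05, against 20.0% of all genes. The mean of Fabp7 was 1515 CPM in G and 1876 in C, and that of Nes 673 and 817. Means of Slc1a3 (1046 and 1005 CPM), Sox2 (118 and 113) and Pax6 were higher in G, and those of the other listed genes lower. Within that list Gfap, a marker of adult subventricular stem cells, was at 0 to 0.852 CPM. Oligodendrocyte lineage markers summed to 1497 to 1567 CPM in G and 1357 to 1799 CPM in C, almost all from Olig1 and Olig2. Microglial markers did not exceed 0.286 CPM in sum in any G library and 0.300 CPM in any C library, with 4 of 8 at 0 throughout. Mural cell and fibroblast markers summed to 0.851 to 1.40 CPM in G and 1.77 to 8.43 CPM in C, with 3 of 7 (Pdgfrb, Col1a2 and Lum) at 0 throughout. The sum was highest in CH1 and CH2, at 8.43 and 5.68 CPM. Acta2 was almost the whole of it there, at 8.43 and 5.36 CPM. Endothelial markers summed to 2.24 to 3.24 CPM in G and 2.85 to 4.58 CPM in C, also highest in CH1 and CH2. Neuronal sums overlapped between G and C, at 35.5 to 46.2 CPM in G and 32.4 to 44.5 CPM in C, but single markers moved in opposite directions. Over both codes, 2 of 7 tested neuronal markers were higher in G and 1 lower at that threshold, against 20.0% of all genes. The mean of Syt1 was 20.5 CPM in G and 13.9 in C, and that of Tubb3 11.7 and 15.3. Ependymal sums overlapped too, at 19.0 to 22.1 CPM in G and 17.4 to 21.7 CPM in C. In bulk RNA, fewer cells of a type and less RNA per cell cannot be told apart.

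Divided by the length of annotated exon, the 10 genes spanned a wide range of levels. Notch1, Hes1 and Jag1 were highest, at 15.8 ± 2.16, 15.4 ± 1.26 and 13.9 ± 1.26 CPM per kb (SD over 8 libraries), and their ranges overlapped. Notch2 at 7.77 ± 1.33, Dll1 at 7.76 ± 0.94 and Notch3 at 7.39 ± 0.69 CPM per kb came next, and these too overlapped. Rbpj and Hey1 had 5.84 ± 0.33 and 5.68 ± 0.56 CPM per kb. Hes5 was far lower, at 1.51 ± 0.48 CPM per kb, and Dll3 lowest, at 0.643 ± 0.13 CPM per kb. The ranges of Notch1, Hes1 and Jag1 lay above those of the other 7 genes, and Hes5 and Dll3 lay below the rest and apart from each other. Among the middle 5 genes there was no break, since Dll1, at 6.003 to 8.79 CPM per kb, reached into the ranges of Rbpj (5.34 to 6.23) and Hey1 (4.65 to 6.20). These are averages over all 8 libraries and over isoforms, on exon lengths of the GENCODE M21 annotation.

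**Figure D1:**
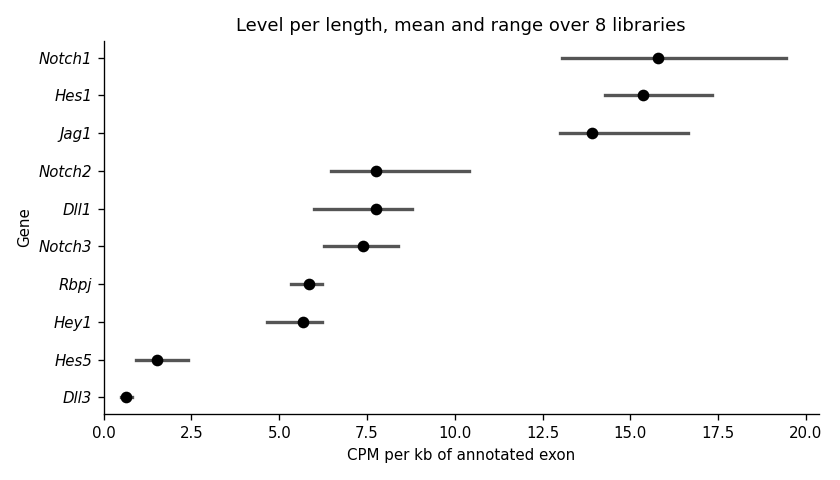
Level of each Notch pathway gene, as CPM per kb of annotated exon on a linear axis. Points are means and bars run from the lowest to the highest of 8 libraries. Notch1, Hes1 and Jag1 lie between 13.0 and 19.4 CPM per kb, and Dll3 stays below 0.821.

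The calls in the 7 comparisons fell on Notch1, Notch2, Dll1, Jag1 and Hes1, and are given below beside the share of all genes called in each. Notch2, lower in G than in C over both codes, gave the call that held whichever library was left out. Between G and C over both codes, 1 of 10 genes was called lower and 0 higher at an edgeR adjusted p under 0.05, against 20.0% of all genes tested. In the same comparison with 1 library left out, the log2 value ranged from -0.19 to -0.07 in Notch1 and from -0.15 to -0.07 in Jag1. In Hes1 it ranged from -0.20 to -0.10. The lowest value of each came without CH2, and with all libraries these genes were not called. Among V libraries 3 of 10 were lower in G (Notch1, Notch2 and Hes1) and 0 higher, against 25.5% of all genes. Among H libraries 1 of 10 was lower in G (Notch2), against 2.18%. Between codes, 1 of 10 was lower in H over both genotypes (Notch1), against 4.26%. Among C libraries 2 were lower in H (Notch1 and Dll1) and 1 higher (Jag1), against 11.8%. Among G libraries 0 of 10 were called, against 1.94%, and 0 of 10 had an unadjusted p under 0.05 or were called by DESeq2. The test of whether the H to V difference differed between G and C called 1 of 10 (Notch1), against 8.52%. The members' shares over both codes and among V libraries (1 and 3 of 10) lie near or below the backgrounds of the G to C comparison, and they are not a result about these genes.

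**Figure D2:**
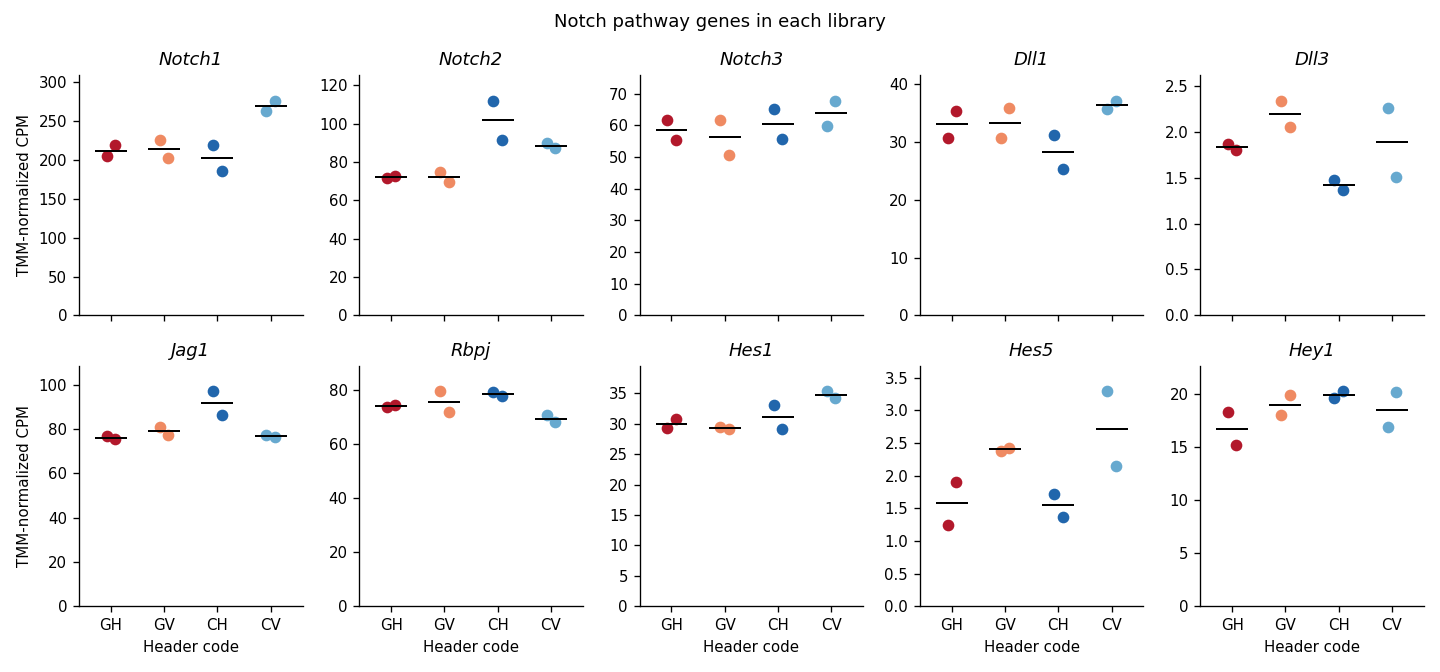
TMM-normalized CPM of the 10 Notch pathway genes in each library, on linear axes from 0. Points are single libraries, 2 per header code, and lines are their means. In Notch2 all G points (69.8 to 74.9 CPM) lie below all C points (87.6 to 112 CPM), and in Notch1 the CV points (263 and 276 CPM) lie above all others.

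Notch1, a receptor that maintains neural stem cells (RefSeq on GRCm38.p6, as for all positions here: chromosome 2, 26457902 to 26503822, minus strand), had 205 and 219 CPM in GH, 226 and 202 in GV, 219 and 186 in CH, and 263 and 276 in CV. The CV libraries were higher than the other 6, which overlapped. The summed oligodendrocyte lineage markers were also highest in CV1 and CV2, at 1799 and 1769 CPM, against 1357 to 1567 CPM in the other 6 libraries. Their part in the Notch1 difference was not tested. Among C libraries the H mean was 202 ± 23.5 CPM and the V mean 270 ± 9.64 CPM (SD, n = 2 each), a log2 fold change, H minus V, of -0.41 (SE 0.08, edgeR adjusted p = 0.00514). Among G libraries H and V means were 212 ± 9.92 and 214 ± 17.1 CPM, a log2 fold change of -0.01 with a 95% interval of -0.18 to 0.15 (edgeR adjusted p = 0.965). The difference between these 2 effects, G minus C, was 0.40 on the log2 scale (SE 0.11, edgeR adjusted p = 0.0404).
Among V libraries Notch1 was lower in G than in C by a log2 fold change of -0.33 (SE 0.08, edgeR adjusted p = 0.00682). Among H libraries the same contrast gave 0.07 (SE 0.08, edgeR adjusted p = 0.797). The comparison of G with C among V libraries and that of H with V among C libraries share CV1 and CV2, which stood apart along the first component. Over both genotypes H minus V gave -0.21 (SE 0.06, edgeR adjusted p = 0.0452), which averages over the unequal effects.
All of these calls were lost in some fits that left out 1 library, which have fewer samples. In some of those fits the log2 value was larger in size, such as the interaction without CV1 or GH1. Among C libraries the H to V call was lost without CH2 (-0.30, edgeR adjusted p = 0.0776) or CV2 (-0.38, adjusted p = 0.0740). Among V libraries the G to C call was lost without CV2 (-0.30, edgeR adjusted p = 0.0767) or GV2 (-0.25, adjusted p = 0.0641). The interaction was lost without CH2 (0.29, edgeR adjusted p = 0.162), CV1 (0.44, adjusted p = 0.0734), CV2 (0.36, adjusted p = 0.166), GH1 (0.43, adjusted p = 0.107), GH2 (0.35, adjusted p = 0.188) or GV2 (0.32, adjusted p = 0.107). The call over both genotypes was lost without CH2 (-0.16, edgeR adjusted p = 0.164), CV1 (-0.23, adjusted p = 0.104), CV2 (-0.20, adjusted p = 0.161), GH1 (-0.19, adjusted p = 0.224), GH2 (-0.24, adjusted p = 0.126) or GV1 (-0.17, adjusted p = 0.169).

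Notch2, a receptor known for stem cell quiescence (chromosome 3, 98013538 to 98150367, plus strand), had 71.8 and 72.9 CPM in GH, 74.9 and 69.8 in GV, 112 and 91.3 in CH, and 89.7 and 87.6 in CV. All 4 G libraries were below all 4 C libraries. The G mean was 72.3 ± 2.14 CPM and the C mean 95.2 ± 11.4 CPM (SD, n = 4 each), a log2 fold change of -0.39, or -23.8% (SE 0.06, edgeR adjusted p = 0.000633). This call was kept in all 8 fits that left out 1 library, with an adjusted p of up to 0.00818 in edgeR.
Within H, a contrast with CH1 and CH2, G minus C was -0.49 (SE 0.08, edgeR adjusted p = 0.00693). Within V it was -0.29 (SE 0.08, edgeR adjusted p = 0.0174). The test of the difference between these effects gave -0.20 (edgeR adjusted p = 0.322). CH1 was far above the other C libraries. Without it the value within H was -0.34 (edgeR adjusted p = 0.0580), and the call was also lost without GH1 (-0.48, adjusted p = 0.128) or GH2 (-0.50, adjusted p = 0.104). Within V the call was lost without CV1 (-0.28, edgeR adjusted p = 0.0933), CV2 (-0.31, adjusted p = 0.0769) or GV2 (-0.24, adjusted p = 0.113).
The summed stem cell markers given above were likewise lower in every G library than in every C library. Slc1a3, Sox2 and Pax6 in that list had higher G means. The mural marker sum, in CH1 almost wholly Acta2, was highest in CH1, where Notch2 was highest. The part of either in the Notch2 difference was not tested. H minus V was 0.10 over both genotypes (95% interval -0.03 to 0.22, edgeR adjusted p = 0.382). Among C libraries, where both CH libraries were above both CV libraries, it was 0.20 (95% interval 0.02 to 0.37, edgeR adjusted p = 0.138), and without CH2 it was 0.34 and called (adjusted p = 0.0314). Among G libraries it was -0.00080 (edgeR adjusted p = 0.999).

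Notch3, also a receptor (chromosome 17, 32120820 to 32166896, minus strand), had 61.7 and 55.3 CPM in GH, 61.6 and 50.7 in GV, 65.1 and 55.8 in CH, and 59.9 and 67.8 in CV. All groups overlapped and no contrast was called. G minus C was -0.12 (95% interval -0.27 to 0.04, edgeR adjusted p = 0.296), and H minus V was -0.01 (-0.16 to 0.14, adjusted p = 0.958).

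**Figure D3:**
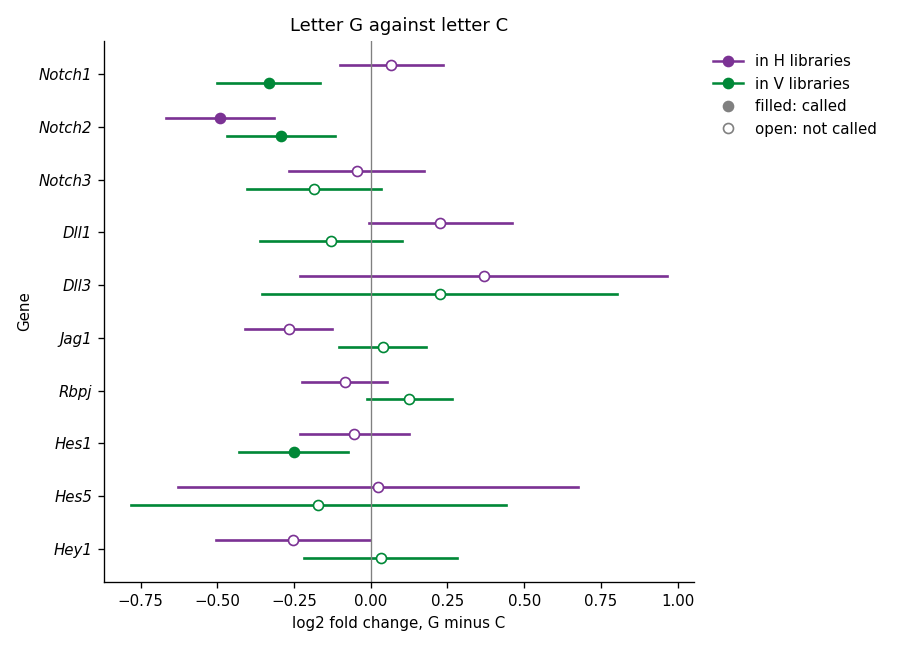
Log2 fold change, G minus C, of each gene among H libraries and among V libraries (2 against 2 each). Bars are 95% intervals of single contrasts, and filled points were called at an adjusted p under 0.05. Notch2 is filled on both rows, at -0.49 and -0.29, and Notch1 and Hes1 in V alone, at -0.33 and -0.25.

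Dll1, a ligand that activates Notch on neighbouring cells (chromosome 17, 15367354 to 15376932, minus strand), had 30.7 and 35.4 CPM in GH, 30.7 and 35.9 in GV, 31.2 and 25.3 in CH, and 35.6 and 37.1 in CV. The CH libraries were below the CV libraries, and CH and G values overlapped. Among C libraries H minus V was -0.37 (SE 0.11, edgeR adjusted p = 0.0436), against -0.01 (95% interval -0.24 to 0.22, adjusted p = 0.983) among G libraries, and the test of the difference gave 0.36 (SE 0.15, adjusted p = 0.168). The call was lost without CH2 (-0.22, edgeR adjusted p = 0.370), CV1 (-0.39, adjusted p = 0.117), CV2 (-0.34, adjusted p = 0.222), GH1 (-0.36, adjusted p = 0.0625) or GH2 (-0.37, adjusted p = 0.0625). Between G and C over both codes the value was 0.05 (95% interval -0.11 to 0.21, edgeR adjusted p = 0.713).

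Jag1, a ligand of the other class (chromosome 2, 137081451 to 137116520, minus strand), moved the other way between codes among C libraries. It had 76.7 and 75.7 CPM in GH, 80.9 and 77.4 in GV, 97.0 and 86.5 in CH, and 77.4 and 76.6 in CV. The 2 CH libraries were above the other 6, which lay between 75.7 and 80.9 CPM. Among C libraries H minus V was 0.25 (SE 0.07, edgeR adjusted p = 0.0252), against -0.05 (SE 0.07, adjusted p = 0.776) among G libraries. The difference of these effects was -0.31 (SE 0.09) and missed the threshold in edgeR (adjusted p = 0.0559), but passed it with RLE size factors (0.0421), with no filter on low counts (0.0209), in DESeq2 (0.0202) and in edgeR without CH2 (-0.39, 0.0453). Among H libraries G minus C was -0.27 (SE 0.07, edgeR adjusted p = 0.0512), which passed with RLE size factors (0.0490), with no filter (0.0186), in DESeq2 (0.0157) and in edgeR without CH2 (-0.35, 0.0326). The call among C libraries was lost without CH1 (0.17, edgeR adjusted p = 0.150), CV1 (0.26, adjusted p = 0.0977), CV2 (0.25, adjusted p = 0.155), GH1 (0.26, adjusted p = 0.0511) or GH2 (0.25, adjusted p = 0.0552). The mural marker Acta2 and the endothelial sum were also highest in the 2 CH libraries. Of the 7 endothelial markers 6 had a mean under 1 CPM. For H minus V among C libraries 0 of 5 tested endothelial markers were called, against 11.8% of all genes. The part of Acta2 or of the endothelial markers in the Jag1 difference was not tested.

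Dll3, a ligand known to act within the cell that makes it (chromosome 7, 28293555 to 28301785, minus strand), was near the lower end of what was measured. It had 1.87 and 1.80 CPM in GH, 2.34 and 2.05 in GV, 1.48 and 1.37 in CH, and 2.26 and 1.50 in CV, from 59 to 106 counts per library. CV1 was far above the other C libraries. No contrast was called, and G minus C had a wide 95% interval, from -0.12 to 0.71 around 0.30 (edgeR adjusted p = 0.325).

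Rbpj, the factor through which all Notch receptors reach DNA (chromosome 5, 53555779 to 53657445, plus strand), varied least, by 5.61% of its mean over the 8 libraries (coefficient of variation). It had 73.7 and 74.5 CPM in GH, 79.4 and 71.9 in GV, 79.3 and 77.9 in CH, and 70.7 and 68.1 in CV. CH was above CV, and the 4 G libraries were above both CV libraries and overlapped CH. H minus V among C libraries was 0.18 (SE 0.06, edgeR adjusted p = 0.0898) and G minus C over both codes 0.02 (95% interval -0.08 to 0.12, adjusted p = 0.812), and no contrast was called.

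**Figure D4:**
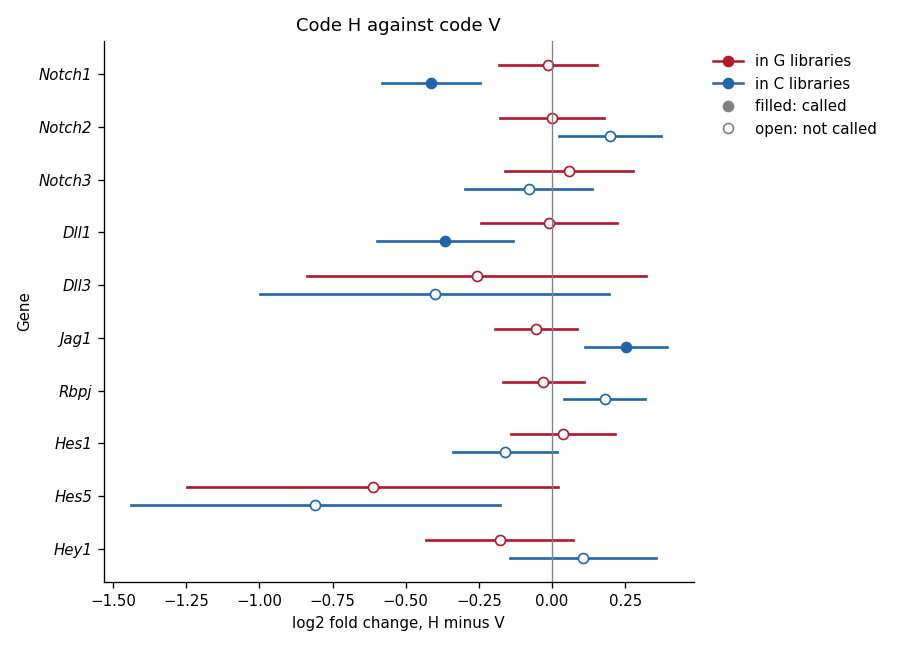
Log2 fold change, H minus V, of each gene among G libraries and among C libraries (2 against 2 each). Bars are 95% intervals of single contrasts, and filled points were called at an adjusted p under 0.05. Filled points appear only among C libraries, for Notch1 (-0.41), Dll1 (-0.37) and Jag1 (0.25), while Hes5 lies at -0.61 in G and -0.81 in C with open points.

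Hes1, a repressor switched on by Notch (chromosome 16, 30065357 to 30067796, plus strand), had 29.3 and 30.8 CPM in GH, 29.4 and 29.1 in GV, 33.2 and 29.1 in CH, and 35.3 and 34.3 in CV. The CV libraries were above all 4 G libraries, and CH overlapped G. Among V libraries G minus C was -0.25 (SE 0.08, edgeR adjusted p = 0.0387), and among H libraries -0.05 (SE 0.08, adjusted p = 0.863). The test of the difference gave 0.20 (edgeR adjusted p = 0.331). The call among V libraries was lost with RLE size factors (-0.23, adjusted p = 0.0552), with no filter on low counts (-0.22, adjusted p = 0.0701) and in DESeq2 (-0.23, adjusted p = 0.0683). In edgeR it was also lost without CV1 (-0.23, adjusted p = 0.155), CV2 (-0.27, adjusted p = 0.114), GH1 (-0.24, adjusted p = 0.0730), GH2 (-0.25, adjusted p = 0.0612), GV1 (-0.26, adjusted p = 0.115) or GV2 (-0.24, adjusted p = 0.122).

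Hes5, a Notch target of neural stem cells (chromosome 4, 154960626 to 154962372, plus strand), was low and varied most. It had 1.25 and 1.90 CPM in GH, 2.38 and 2.43 in GV, 1.73 and 1.37 in CH, and 3.29 and 2.14 in CV, from 52 to 128 counts per library. All 4 H libraries were below all 4 V libraries. H minus V over both genotypes was -0.71 (SE 0.21), or -38.9%, and missed the threshold (edgeR adjusted p = 0.0711), but passed with no filter on low counts (0.0333). The value was -0.61 among G libraries (SE 0.30, edgeR adjusted p = 0.356) and -0.81 among C libraries (SE 0.29, adjusted p = 0.0931). G minus C over both codes was -0.07 with a 95% interval of -0.52 to 0.37 (edgeR adjusted p = 0.854).

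Hey1, a repressor of the Hey family (chromosome 3, 8663359 to 8667038, minus strand), had 18.3 and 15.2 CPM in GH, 18.0 and 19.9 in GV, 19.7 and 20.3 in CH, and 16.9 and 20.2 in CV. Groups overlapped except GH and CH, and no contrast was called. G minus C was -0.25 among H libraries (SE 0.12, edgeR adjusted p = 0.354) and 0.03 among V libraries (SE 0.12, adjusted p = 0.880).

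Over the 10 genes, the median log2 fold change, G minus C, was -0.11, against -0.0077 over all genes tested, and H minus V was -0.05, against 0.01. Among C libraries the median H minus V was -0.12, against -0.0078 over all genes. Counts overlapping a gene on the opposite strand were few where they could be seen. The overlapping gene 0610009E02Rik had 7 to 29 counts, against at least 8283 for Notch1. On the same strand, Gm42819 and Gm42820 overlap Notch2 and Mir6996 overlaps Notch1. The counts of these same-strand genes were not examined. The strand setting used in counting is not given in the sources used here.

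The rest of the pathway was taken as 78 further genes in lists, of which 70 passed the filter. Dlk1, Hes2, Hes3, Hes7, Heyl, Neurog1, Neurog2 and Atoh1 did not. Over both codes 8 of 70 were higher and 11 lower in G than in C (27.1%, against 20.0% of all genes), and among V libraries 13 were higher and 11 lower (34.3%, against 25.5%). Among H libraries 2 were higher and 0 lower in G (2.86%, against 2.18%). Between codes, 0 were higher and 6 lower in H over both genotypes (8.57%, against 4.26%). Among C libraries 6 were higher and 11 lower in H (24.3%, against 11.8%), and among G libraries 0 were higher and 1 lower (1.43%, against 1.94%). Over the 70 genes the median was -0.12 for G minus C among V libraries, against -0.015 over all genes, and -0.09 for H minus V among C libraries, against -0.0078. Fabp7, Olig2 and Gfap are in these lists and also among the cell type markers above. The interaction called 5 higher and 6 lower (15.7%, against 8.52%).

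**Figure D5:**
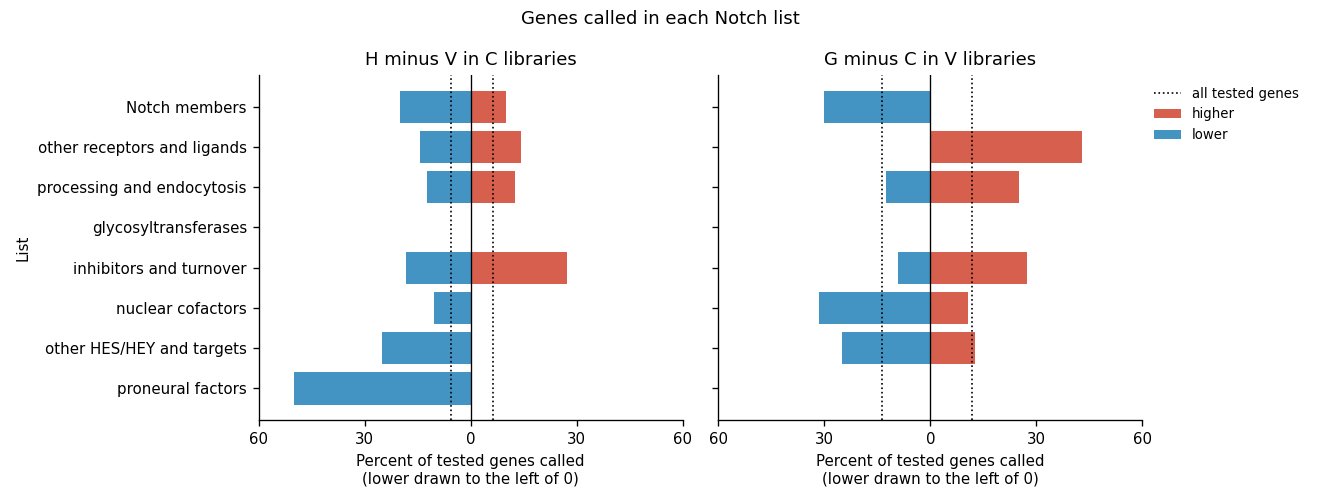
Percent of the tested genes of each Notch list called higher (right of 0) and lower (left of 0), for H minus V among C libraries and G minus C among V libraries, on linear axes. Dotted lines are all genes tested. Nuclear cofactors reach 6 of 19 lower in G among V libraries, and inhibitors and turnover genes 3 of 11 higher in H among C libraries.

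Among further receptors and ligands, 3 of 7 were higher in G among V libraries and 0 lower, against 25.5% of all genes called in either direction. Cntn1 and Dner, surface proteins reported as Notch ligands, were among them. Cntn1 had 186 and 185 CPM in GV and 129 and 126 CPM in CV, a log2 fold change of 0.54 (SE 0.06, edgeR adjusted p = 6.00e-05). Dner had 146 and 143 CPM in GV and 112 and 114 CPM in CV, a change of 0.36 (SE 0.06, edgeR adjusted p = 0.00078). Cntn6, related to Cntn1, had an interaction of -1.28 (SE 0.29, edgeR adjusted p = 0.0184), from 4.98 and 4.15 CPM in GH, 5.29 and 6.14 in GV, 7.68 and 6.35 in CH, and 4.32 and 2.92 in CV. That call was lost without CV2 (-1.02, edgeR adjusted p = 0.0955), GH1 (-1.43, adjusted p = 0.0632) or GH2 (-1.16, adjusted p = 0.0956).

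Among 16 genes of ligand and receptor processing, 4 were higher and 2 lower in G among V libraries (37.5%, against 25.5% of all genes). The receptor-cutting proteases Adam10 and Adam17 had interactions of -0.40 (SE 0.08, edgeR adjusted p = 0.0114) and -0.34 (SE 0.09, adjusted p = 0.0326). Adam10 was lost without CV2 (edgeR adjusted p = 0.0598) or GH1 (adjusted p = 0.0779), and Adam17 without CH2, CV1, CV2, GH1, GH2 or GV1 (up to adjusted p = 0.153). Aph1b, a gamma-secretase subunit, was higher in G among H libraries by 0.38 (SE 0.08, edgeR adjusted p = 0.0215), lost without CH1, CH2, GH1 or GH2 (0.34 to 0.41, up to adjusted p = 0.252). Epn1, an endocytic adaptor, was lower in G among V libraries by a log2 fold change of -0.31 (SE 0.08, edgeR adjusted p = 0.00933), lost without CV2 (adjusted p = 0.0777) or GV1 (adjusted p = 0.0957). Of 6 glycosyltransferases 0 were called between G and C among V libraries, against 25.5% of all genes. Over both codes 1 was called lower in G and 0 higher (16.7%, against 20.0% of all genes). It was Lfng, which modifies Notch receptors, at -0.15 (SE 0.04, edgeR adjusted p = 0.0257). Its call was lost without CH1, CV1, GH1, GH2 or GV1 (-0.12 to -0.15).

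Among 11 inhibitors and turnover genes, 3 were higher and 1 lower in G among V libraries (36.4%, against 25.5% of all genes). Between codes, 3 were higher and 2 lower in H among C libraries (45.5%, against 11.8% of all genes). Numbl, an adaptor that restrains Notch, was lower in H among C libraries, at -0.48 (SE 0.11, edgeR adjusted p = 0.0173), lost without CH2, CV1 or CV2 (up to adjusted p = 0.139). Dtx3, of the Deltex family, had an interaction of 0.49 (SE 0.13, edgeR adjusted p = 0.0384), lost without CH2, CV1, CV2, GH1, GH2 or GV1 (up to adjusted p = 0.192). Ccnc and its kinase partner Cdk8, which mark the Notch intracellular domain for turnover, gave 0.40 for G minus C among V libraries (SE 0.09, edgeR adjusted p = 0.00353) and -0.40 for the interaction (SE 0.10, adjusted p = 0.0289). Ccnc was lost without CV2 (0.33, edgeR adjusted p = 0.0572) and Cdk8 without CH2, CV2, GH1, GH2 or GV1 (up to adjusted p = 0.137).

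Among 19 nuclear cofactors, 2 were higher and 6 lower in G among V libraries (42.1%, against 25.5% of all genes). Between codes, 0 were higher and 2 lower in H among C libraries (10.5%, against 11.8% of all genes). Spen, an RBPJ corepressor, had 71.3 and 57.4 CPM in GV and 93.5 and 89.2 CPM in CV, a log2 fold change of -0.51 (SE 0.09, edgeR adjusted p = 0.000948). Maml1, a coactivator of the Notch complex, was at -0.44 (SE 0.10, edgeR adjusted p = 0.00584), lost without GV2 (-0.36, adjusted p = 0.0535). Bend6, an RBPJ-binding corepressor, was higher in G over both codes, with 6.13 to 7.48 CPM in G and 4.38 to 5.32 CPM in C (0.51, SE 0.11, edgeR adjusted p = 0.00618). Tle2, a Groucho corepressor that works with HES proteins, was at -0.59 for H minus V among C libraries (SE 0.10, edgeR adjusted p = 0.00367), lost without CH2 (-0.44, adjusted p = 0.0597).

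Among 8 tested HES and HEY relatives and targets, 1 was higher and 2 lower in G among V libraries (37.5%, against 25.5% of all genes). Myc, a direct Notch target in other cells, had 52.0 and 57.7 CPM in GV and 82.7 and 80.6 CPM in CV, a log2 fold change of -0.57 (SE 0.07, edgeR adjusted p = 0.000163). Fabp7, a radial glial lipid-binding protein, had 1252 and 1505 CPM in GV and 1787 and 1804 CPM in CV, a change of -0.38 (SE 0.08, edgeR adjusted p = 0.00296). Sox9, a glial fate factor, was at 0.30 (SE 0.08, edgeR adjusted p = 0.0142), lost without CV1, CV2 or GV1 (0.26 to 0.33, up to adjusted p = 0.101). Hes6, known to oppose Hes1, had an interaction of 0.46 (SE 0.11, edgeR adjusted p = 0.0254), lost without CH2, CV2, GH1, GH2 or GV1 (up to adjusted p = 0.122). In the separate list of proneural factors, 0 of 4 tested genes were called between G and C among V libraries, against 25.5% of all genes. Among C libraries 0 were higher and 2 lower in H (50%, against 11.8% of all genes). Olig2, a factor of the oligodendrocyte lineage, had an interaction of 0.25 (SE 0.07, edgeR adjusted p = 0.0487). Its call was lost with RLE size factors (edgeR adjusted p = 0.0656), with no filter (adjusted p = 0.0837) and without any single library except GV2. Cntn1, Dner, Bend6, Spen, Myc and Fabp7 kept their call whichever library was left out, and the other genes named from these lists did not. All were named for being called with the largest log2 fold changes. The share of all called genes that kept their call in this way is not given here.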

How the data were processed

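RNA-seq of 8 libraries was read from a table of read counts per gene, which the authors deposited without normalization, per the file headers. Per the labels' protocols, total RNA was depleted of ribosomal RNA and made into stranded libraries. HISAT2 2.1.0, StringTie 2.1.3b, bcl2fastq 2.20.0, Trimmomatic and the build GRCm38 (mm10) are named in the submitters' processing notes. The sources used here do not give the counting tool, its strand setting or any filter. The other 16 value columns were not used.

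Columns were assigned to genotype by the first letter of their header. Counts were normalized by TMM and filtered with filterByExpr (minimum count 10, minimum total 15). They were tested with edgeR 4.0.16 in R 4.3.3 by a quasi-likelihood F test on 4 means (GH, GV, CH, CV), which share 1 estimate of the spread. Benjamini-Hochberg adjustment ran over all 17644 genes tested, and genes were called at an adjusted p under 0.05. CPM values are TMM-normalized, and each standard error is the log2 fold change divided by the root of F. Intervals at 95% are for single contrasts, unadjusted. The code was tested on simulated data. Alternatives were RLE size factors, no filter on low counts, DESeq2 1.42.0, a replicate block and leaving out each library.

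The 10 genes, the lists and the tests were chosen with earlier results of these data known. From each list up to 4 called genes with the largest log2 fold change in any comparison were named. A gene that this rule names is not reported here.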

Additional observations from a re-analysis of the deposited data

Results flagged for a closer look

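The H to V effect on Notch1 differed between the G and C libraries by the test of the difference itself. The interaction was 0.40 on the log2 scale (edgeR adjusted p = 0.0404), with H minus V at -0.01 among G libraries and -0.41 among C libraries. Among 22 sets of 4 libraries (each member and S1pr1 in G and in C), a single library stood far from the other 3 in 2 cases, and chance gives this in about 1 set in 20. Notch2 in CH1 had 112.1 CPM, with a gap to its neighbour of 0.847 of the range of the C libraries. Dll3 in CV1 had 2.26 CPM, with a gap of 0.849 of the range of the C libraries. What set these libraries apart was not tested.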

How the results depend on the processing

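Calls over all genes moved with the processing. Over both codes, G against C gave 3524 genes, and 1833 to 3565 with 1 library left out. Over both genotypes, H against V gave 752 genes, 1132 in DESeq2, 485 with the replicate block and 143 to 1258 with 1 library left out. Among H libraries, G against C gave 384 genes, 577 with no filter on low counts and 55 to 434 with 1 library left out. Among V libraries the count was 4499, and 2199 to 4561 with 1 left out. Among G libraries, H against V gave 343 genes, 524 with no filter, 668 in DESeq2, 216 with the replicate block and 3 to 877 with 1 left out. Among C libraries it gave 2080, and 397 to 2255 with 1 left out. The interaction gave 1503, and 145 to 1659 with 1 left out. The cause was not tested, beyond the fewer samples of each such fit, in which the lone library of a pair is assumed to vary like the others.

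Values that were not called changed sign when 1 library was left out, and the log2 range over the 8 such fits is given. For G minus C over both codes it was -0.022 to 0.13 in Dll1, -0.24 to 0.10 in Hes5, -0.016 to 0.055 in Rbpj, -0.011 to 0.18 in S1pr1. For H minus V over both genotypes it was -0.11 to 0.032 in Hey1, -0.078 to 0.063 in Notch3. For G minus C among H libraries it was -0.14 to 0.043 in Hes1, -0.31 to 0.30 in Hes5, -0.047 to 0.19 in Notch1, -0.15 to 0.069 in Notch3. For G minus C among V libraries it was -0.044 to 0.54 in Dll3, -0.45 to 0.17 in Hes5, -0.089 to 0.17 in Hey1. For H minus V among G libraries it was -0.12 to 0.11 in Dll1, -0.093 to 0.069 in Notch1, -0.051 to 0.050 in Notch2, -0.074 to 0.21 in Notch3, -0.10 to 0.044 in Rbpj, -0.083 to 0.058 in S1pr1. For H minus V among C libraries it was -0.015 to 0.24 in Hey1, -0.20 to 0.027 in Notch3. For the interaction it was -0.18 to 0.41 in Dll3, -0.14 to 0.48 in Hes5. 

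Replicate numbers did not pair the libraries: the deviations of same-numbered libraries from their group means correlated at -0.0458 to 0.0103 over 6 pairs of groups, with 0 above 0.1. With the replicate block, Notch2 for H minus V among G libraries was 0.0013 on the log2 scale, a reversal of an uncalled value near 0. With the block, 3 member calls had an adjusted p above 0.05: Notch1 for H minus V over both genotypes (edgeR adjusted p = 0.0629) and for the interaction (edgeR adjusted p = 0.0532), and Dll1 for H minus V among C libraries (edgeR adjusted p = 0.0622). So did the calls of Adam17, Dtx3 and Olig2 named from the lists. No called member changed sign under RLE size factors, no filter, DESeq2, the replicate block or any left-out library. Notch2 over both codes kept its call under all of these. Levels of Hes5 and Dll3 rest on 52 to 128 counts per library, which limits their precision.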
